A study of Mus musculus with 19 samples.

Results

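Genes of the SLC25 family, most of which encode carriers of the inner mitochondrial membrane, were followed in the left ventricle of mice after aortic banding. Members were the probe sets whose annotation gave exactly 1 symbol beginning with Slc25a. The brightest probe set on average over the 19 arrays stood for each gene, and a gene was kept when its log2 signal exceeded 4 on at least 5 arrays. Of 44 Slc25a genes, measured by 93 probe sets, 36 passed and were tested among 10733 genes. The other 8 genes (Slc25a2, Slc25a18, Slc25a31, Slc25a41, Slc25a47, Slc25a48, Slc25a53 and Slc25a54) exceeded 4 on 0 arrays, and the highest value among them was 3.71, for Slc25a47.

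SLC25 proteins carry nucleotides, phosphate, acids, cofactors and acylcarnitines across a membrane that is otherwise closed to them, usually by exchanging one molecule for another. The heart makes most of its ATP in mitochondria from fatty acids, so fuel entry through the carnitine carrier, ADP and phosphate entry, ATP exit and the exchange of reducing equivalents with the cytosol all pass through members of this family. The carriers are encoded in the nucleus, and most are imported into the inner membrane after synthesis.

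The series compared male C57BL/6 mice operated on at 7 weeks of age and killed 4 weeks later. Aortic banding, a constriction that loads the left ventricle with pressure, was followed by heart failure in 7 mice and by no heart failure in another 7, and 5 mice had a sham operation. RNA came from the whole left ventricle of each mouse, and all groups shared strain, sex, age and tissue. The criterion for heart failure was not given in the sources used here. The labels' lung weight index (weight over tibia length, in the labels' unit) was 17.92 to 24.62 in mice with heart failure, 8.52 to 10.83 in banded mice without it and 8.2 to 9.38 in sham mice, so only the first group stood apart. The left ventricular index averaged 8.97 ± 0.61 with heart failure, 6.98 ± 0.44 in banded mice without it and 5.14 ± 0.26 in sham mice (SD, n = 7, 7 and 5).

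Several features of the arrays and of the tissue moved with the groups. The 18S control probe set fell into a high set of arrays (3 banded mice without heart failure and 3 sham mice, 9.03 to 11.8) and a low set that held all 7 mice with heart failure, 4 banded mice without it and 2 sham mice (5.14 to 7.62). The 3' minus 5' difference of the actin probe sets, which reads RNA integrity, was 0.66 to 0.91 with heart failure, 0.67 to 0.90 without it and 0.94 to 1.02 in sham mice. Sham and banded mice thus did not overlap in it. A fit with this difference as a covariate can hardly separate it from banding, so a call against sham mice lost there is hard to read. All 7 fibroblast markers were higher with heart failure than in sham mice. The log2 of their summed unlogged signal, which weighs the brightest markers most, was 15.70 to 16.16 with heart failure, 15.00 to 15.78 without and 14.52 to 15.30 in sham mice. Of 7 cardiomyocyte markers, 3 were lower with heart failure than in sham mice (Tnni3 by 0.27, Ryr2 by 0.23 and Myh6 by 0.15 on the log2 scale). The log2 of the summed unlogged signal of all 7 was 18.53 to 18.64 with heart failure, 18.61 to 18.68 without and 18.60 to 18.74 in sham mice. Endothelial markers were higher for 3 of 6 and smooth muscle and pericyte markers for 2 of 5, while 0 of 6 macrophage and leukocyte markers and 0 of 3 adipocyte markers passed by limma. Among all tested genes, 20.4 percent were higher and 18.9 percent lower with heart failure than in sham mice. At an unadjusted p under 0.05, 1 macrophage and leukocyte marker was lower and 0 were higher, and 0 adipocyte markers moved either way. The brown fat marker Ucp1, itself of the SLC25 fold, exceeded 4 on 0 arrays. Fits with the 18S set or the actin difference as a term are given below as alternatives for single carriers. No fit took up the cell type markers, and how much of the results any of these features accounts for was not tested. In whole-tissue RNA fewer cells of a type and less RNA per cell cannot be told apart.

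Carriers were lower more often than higher in the hearts of mice with heart failure. Against sham mice, 13 of the 36 genes fell and 2 rose (limma, adjusted p under 0.05 over all 10733 genes), where 18.9 percent of all tested genes fell, 20.4 percent rose and 39.3 percent did either. Calls of either direction, 15 of 36, were thus close to the share over all genes, and the falls alone made up 36.1 percent of the carriers. The median difference of the 36 carriers was -0.11 on the log2 scale, beside 0.01 for all genes. In banded mice without heart failure 3 carriers fell and 2 rose against sham mice, with 6.53, 10.8 and 17.4 percent of all genes falling, rising or doing either, so the 5 carriers called lay below that last share. The median difference over the 36 carriers was -0.05, beside 0.02 for all genes. Both comparisons used the same 5 sham mice. The values of the groups compared did not overlap for 7 carriers with heart failure against sham mice (17.6 percent of all genes) and for 3 without heart failure against sham mice (7.67 percent).

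Between the 2 banded groups, 2 carriers were lower with heart failure and 0 were higher. The shares over all genes were 5.65 percent lower, 3.83 percent higher and 9.48 percent either, so the carriers' count was close to the background. At an unadjusted p under 0.05, 9 of 36 carriers were lower and 0 higher, beside 1630 and 1144 of all 10733 genes. The banded groups did not overlap for 1 carrier, Slc25a42, beside 2.64 percent of all genes. The direction was negative for 27 of 36 carriers, beside 53.6 percent of all genes. For all 13 carriers that fell with heart failure, the mean of the banded mice without heart failure lay between the other two means. Those 13 were picked for a gap between the outer means, which by itself favours a mean in between. How often this held among all genes that fell was not counted.

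**Figure D1:**
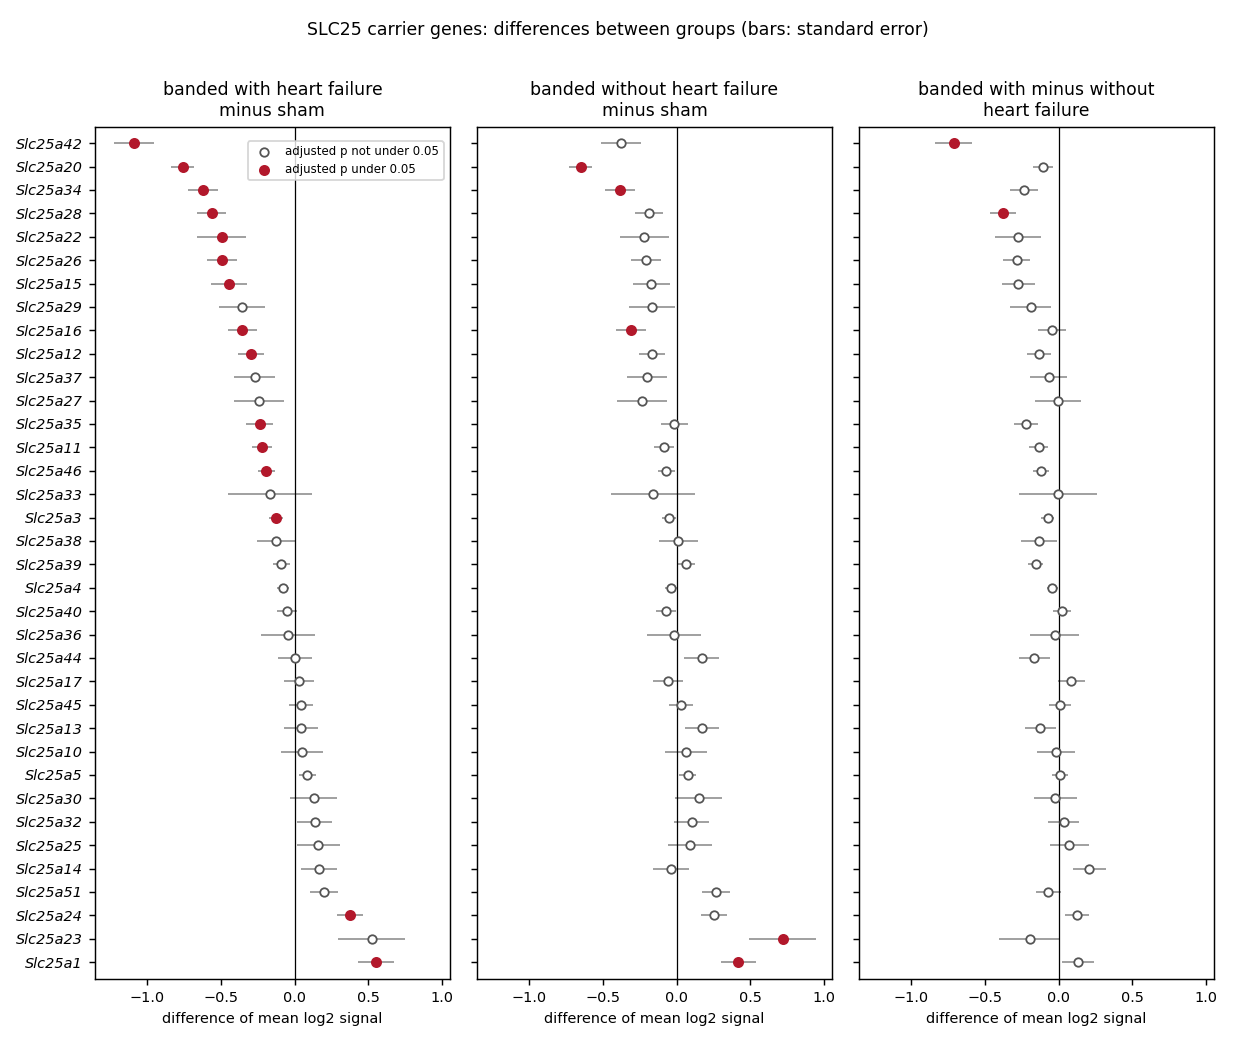
Difference of mean log2 signal (x axis) for each of the 36 carriers (y axis) in the 3 comparisons, with the standard error as a bar and filled points where the adjusted p was under 0.05. Filled points to the left of 0 number 13, 3 and 2 from the left panel to the right, and filled points to the right number 2, 2 and 0.

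The largest fall was that of Slc25a42, which brings coenzyme A into the matrix in exchange for adenine nucleotides. Its log2 signal was 7.32 to 7.91 with heart failure (median 7.74), 8.26 to 8.78 in banded mice without it (median 8.36), and 8.72, 8.59, 8.57, 9.44 and 8.62 in the 5 sham mice. Every mouse with heart failure was below every mouse of the other groups, while the banded mice without heart failure overlapped with sham mice. The fall was 1.09 against sham mice (SE 0.14, adjusted p = 6.44e-06), a 2.13-fold lower signal, and 0.71 against banded mice without heart failure (SE 0.12, adjusted p = 0.00348). Banded mice without heart failure differed from sham mice by -0.38 (SE 0.14, adjusted p = 0.0633). The sham mouse at 9.44 stood apart from its group. Without it the difference from sham mice was -0.92 with heart failure and -0.21 in banded mice free of it. That last difference passed the threshold after a second quantile normalization, at -0.42 (adjusted p = 0.0445).

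Slc25a20, the carnitine-acylcarnitine carrier that admits long-chain fatty acids to the matrix for oxidation, was the carrier that fell most in banded mice without heart failure. Its log2 signal was 11.33 to 11.63 with heart failure (median 11.56), 11.48 to 11.81 without (median 11.61), and 12.51, 12.26, 12.30, 12.09 and 12.26 in sham mice. All 14 banded mice were below all 5 sham mice, and the banded groups overlapped. It fell by 0.76 with heart failure (SE 0.08, adjusted p = 6.81e-07, 1.69-fold) and by 0.65 without it (SE 0.08, adjusted p = 2.41e-05, 1.57-fold). The banded groups differed by -0.11 (95 percent interval -0.25 to 0.04, adjusted p = 0.352).

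Slc25a34, a carrier whose substrate is not settled, came next in size. Its signal was 10.15 to 10.73 with heart failure (median 10.31), 10.47 to 10.66 without (median 10.52), and 10.92, 10.67, 10.82, 11.30 and 11.03 in sham mice. The banded mice without heart failure all lay below the sham mice, whereas 1 of the mice with heart failure reached into the sham range. It fell by 0.62 (SE 0.10, adjusted p = 0.000133) and by 0.38 (SE 0.10, adjusted p = 0.0156) in the mice with and without heart failure, against sham mice. The second call did not hold in the high 18S arrays alone, at -0.26 (adjusted p = 0.101).

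The promoter windows of these 3 genes, from 250 bases before to 50 bases after the RefSeq start (GRCm38.p6), are shown because they belong to the carriers with the largest falls. Capitals mark matches on either strand to the motifs searched, which were the nuclear receptor motif AGGTCA, the longer ERR element TCAAGGTCA that contains it, the CCAAT box CCAAT, the GC box GGGCGG and the NRF1 element (its palindromic consensus). The windows lie at chr8:70212232-70212531 on the minus strand (Slc25a42), chr9:108661886-108662185 on the plus strand (Slc25a20) and chr4:141623785-141624084 on the minus strand (Slc25a34), each written 5′ to 3′ along its gene.
Slc25a42: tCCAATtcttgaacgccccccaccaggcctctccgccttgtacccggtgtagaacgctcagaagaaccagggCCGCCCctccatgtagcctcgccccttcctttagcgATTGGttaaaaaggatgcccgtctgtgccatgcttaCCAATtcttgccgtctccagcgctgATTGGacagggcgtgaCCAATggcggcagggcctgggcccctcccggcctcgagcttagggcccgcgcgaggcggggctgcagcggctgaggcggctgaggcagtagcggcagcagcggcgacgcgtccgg
Slc25a20: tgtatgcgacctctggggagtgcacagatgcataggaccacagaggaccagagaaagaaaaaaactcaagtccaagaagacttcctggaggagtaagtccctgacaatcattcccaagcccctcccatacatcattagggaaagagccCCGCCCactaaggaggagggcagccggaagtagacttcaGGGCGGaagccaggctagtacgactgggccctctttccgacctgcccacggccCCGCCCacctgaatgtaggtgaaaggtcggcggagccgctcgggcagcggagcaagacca
Slc25a34: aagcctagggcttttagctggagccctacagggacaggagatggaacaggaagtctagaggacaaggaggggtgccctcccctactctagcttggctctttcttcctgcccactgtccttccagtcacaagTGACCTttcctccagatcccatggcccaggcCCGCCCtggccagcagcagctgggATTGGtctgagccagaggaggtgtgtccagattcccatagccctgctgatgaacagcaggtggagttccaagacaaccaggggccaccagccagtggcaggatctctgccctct

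The Slc25a42 window held 5 CCAAT boxes and 1 GC box. The Slc25a20 window held 3 GC boxes, and the Slc25a34 window held 1 nuclear receptor motif, 1 CCAAT box and 1 GC box. Of the 36 carriers, 28 had a window in the table. A GC box was found in 26 of these 28 (92.9 percent), beside 70.2 percent of 8722 tested genes with a window, and a CCAAT box in 16 (57.1 percent), beside 42.7 percent. The nuclear receptor motif was found in 3 (10.7 percent), beside 14.7 percent. The ERR and NRF1 elements were found in 0 carriers, beside 0.355 and 2.43 percent of tested genes. These are matches of letters in the windows and were not tested against the expression values.

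Among the other carriers of cofactors and nucleotides, Slc25a26, which imports S-adenosylmethionine for methylation in the matrix, also fell with heart failure. Its signal was 8.25 to 8.83 with heart failure (median 8.72), 8.55 to 9.12 without (median 8.98), and 9.01, 9.09, 9.22, 9.20 and 9.27 in sham mice. The mice with heart failure did not overlap with sham mice, and the difference was -0.49 (SE 0.10, adjusted p = 0.000893). With the actin 3' minus 5' difference as a covariate it was -0.24 (adjusted p = 0.151).

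Slc25a16 fell in both banded groups. Its signal was 9.13 to 9.73 with heart failure (median 9.57), 9.24 to 9.74 without (median 9.61), and 9.91, 10.04, 9.75, 9.84 and 9.79 in sham mice. Neither banded group overlapped with sham mice, at -0.35 (SE 0.10, adjusted p = 0.00978) and -0.31 (SE 0.10, adjusted p = 0.0426). The first call was lost with the 18S set as a block (-0.26, adjusted p = 0.0793), with the actin covariate and in the low 18S arrays alone, and the second held in 16 of 31 alternatives.

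The other 5 cofactor and nucleotide carriers passed in none of the 3 comparisons. Against sham mice, heart failure differed by -0.17 for Slc25a33 and -0.05 for Slc25a36, which carry pyrimidine nucleotides, and by 0.14 for Slc25a32, the folate carrier. Slc25a51, which carries NAD into mitochondria, differed by 0.20 (adjusted p = 0.104) with heart failure and 0.27 (adjusted p = 0.0577) without. Slc25a17, a member of peroxisomes, differed by 0.03 with heart failure. The 95 percent interval for Slc25a33, from -0.77 to 0.44, was the widest of the 36.

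Of the amino acid carriers grouped with Slc25a20, Slc25a15, which exchanges ornithine and citrulline, fell with heart failure. Its signal was 8.21 to 8.67 with heart failure (median 8.48), 8.27 to 8.98 without (median 8.85), and 9.06, 9.13, 9.03, 8.59 and 8.67 in sham mice. The 3 sham mice on high 18S arrays were the ones above 9, and the other two lay within or at the edge of the range with heart failure. The difference was -0.44 (SE 0.12, adjusted p = 0.00856) over all arrays, -0.18 (adjusted p = 0.377) in the low 18S arrays alone and -0.10 (adjusted p = 0.638) with the actin covariate. Slc25a29 (basic amino acids, -0.36, adjusted p = 0.0741), Slc25a38 (glycine for haem synthesis, -0.12) and Slc25a44 (branched-chain amino acids, 0.00) did not pass against sham mice. Slc25a38 passed in the low 18S arrays alone, at -0.43 (adjusted p = 0.0209).

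The malate-aspartate shuttle brings cytosolic reducing equivalents into mitochondria and runs through an oxoglutarate-malate and an aspartate-glutamate carrier. The heart's main aspartate-glutamate carrier Slc25a12 (aralar) and the oxoglutarate-malate carrier Slc25a11 fell with heart failure, and the paralog Slc25a13 (citrin) was not called. Slc25a12 read 12.40 to 12.65 with heart failure (median 12.58), 12.51 to 12.86 without (median 12.77), and 12.70, 12.73, 12.68, 13.00 and 13.20 in sham mice. The heart failure group lay below all sham mice, with a difference of -0.30 (SE 0.09, adjusted p = 0.0137) that was -0.53 (adjusted p = 0.000706) in the low 18S arrays alone. Slc25a13 read 10.87 to 11.34 with heart failure (median 11.01), 11.00 to 11.46 without (median 11.13), and 10.82, 10.95, 10.86, 11.41 and 11.19 in sham mice, and the groups overlapped. Its differences were 0.05 (95 percent interval -0.20 to 0.29) and 0.17 (-0.07 to 0.41) against sham mice. Whether the 2 paralogs differed from each other in their change was not tested.

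Slc25a11 read 12.39 to 12.76 with heart failure (median 12.56), 12.57 to 12.84 without (median 12.72), and 12.66, 12.85, 12.74, 12.94 and 12.84 in sham mice. The ranges overlapped and the fall was 0.22 (SE 0.07, adjusted p = 0.0159), a 1.17-fold lower signal. The mitochondrial glutamate carrier Slc25a22 read 7.67 to 8.48 with heart failure (median 8.16), 8.20 to 8.75 without (median 8.44), and 8.49, 8.22, 8.36, 9.28 and 8.92 in sham mice. Sham mice 4 and 5 were above all banded mice and the other 3 were among them. Its fall of 0.49 (SE 0.17, adjusted p = 0.0257) lost its call without either of those 2 mice, the smallest difference being -0.34. It was also lost with no filter, with the actin covariate (-0.47, adjusted p = 0.168) and with only these 2 groups in the fit, while in the low 18S arrays alone the difference was -0.94 (adjusted p = 0.00442).

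ADP/ATP and phosphate carriers, which serve ATP synthesis directly, moved little on the probe sets that stand for them. Slc25a4, the heart's main ADP/ATP carrier, read 16.08 to 16.22 with heart failure (median 16.15), 16.14 to 16.22 without (median 16.19), and 16.24, 16.28, 16.24, 16.23 and 16.16 in sham mice. These values lie close to the highest value in the whole table, 16.77, and the difference with heart failure was -0.08 (SE 0.04, adjusted p = 0.147). Of its other 3 probe sets, 1 differed by -0.57 (adjusted p = 0.00139), 1 by -0.38 (adjusted p = 0.00115) and 1 by -0.08 (adjusted p = 0.121), and the mean of all 4 fell by 0.28 with heart failure (adjusted p = 0.00033) and by 0.22 without it (adjusted p = 0.00705). On the probe set that stands for Slc25a4, the same difference of -0.08 was called with no filter (adjusted p = 0.0248) and with a trended, robust spread estimate (adjusted p = 0.0265), and equal array medians gave -0.15 (adjusted p = 0.0162).

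Slc25a5, the ADP/ATP carrier found in most tissues, read 13.46 to 13.75 with heart failure (median 13.58), 13.44 to 13.71 without (median 13.58), and 13.52, 13.53, 13.58, 13.43 and 13.54 in sham mice. The groups overlapped, the difference was 0.09 (95 percent interval -0.04 to 0.21), and its 8 probe sets ranged from -0.10 to 0.11 with 0 calls. Slc25a3, which imports the phosphate for ATP synthesis, read 14.60 to 14.80 with heart failure (median 14.70), 14.72 to 14.81 without (median 14.77), and 14.78, 14.80, 14.77, 14.91 and 14.84 in sham mice. It fell by 0.13 (SE 0.05, adjusted p = 0.0401), a 1.09-fold lower signal, and the call was kept in 17 of 30 alternatives.

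The calcium-binding ATP-Mg/phosphate carriers set the size of the adenine nucleotide pool of the matrix, and here lay the second of the genes that rose with heart failure. Slc25a24 read 8.18 to 8.74 with heart failure (median 8.55), 8.16 to 8.52 without (median 8.42), and 8.08, 8.03, 8.19, 8.17 and 8.12 in sham mice. All but the lowest mouse with heart failure were above the sham range. The rise was 0.38 (SE 0.09, adjusted p = 0.00216), and in the low 18S arrays alone it was 0.35 (adjusted p = 0.063). Without heart failure the difference was 0.25 (adjusted p = 0.0529).

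Slc25a23 read 6.82 to 8.25 with heart failure (median 7.72), 7.54 to 8.13 without (median 7.99), and 6.79, 6.70, 6.88, 7.81 and 7.69 in sham mice. The 3 sham mice on high 18S arrays were below 7 and the other two were among the banded mice. It was higher in banded mice without heart failure by 0.72 (SE 0.23, adjusted p = 0.0354), a difference that was 1.25 (adjusted p = 0.00201) in the high 18S arrays alone and 0.03 (adjusted p = 0.977) in the low 18S arrays alone. The difference with heart failure, 0.52 (adjusted p = 0.0739), did not pass. Slc25a25, near the filter with 8 of 19 arrays at 4.35 when rounded to 2 decimals, did not differ past the threshold.

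Slc25a1, the citrate carrier that exports citrate for lipid synthesis, rose in both banded groups. Its signal was 6.83 to 7.31 with heart failure (median 6.92), 6.58 to 7.06 without (median 6.97), and 6.05, 6.34, 6.75, 6.46 and 6.71 in sham mice. The mice with heart failure were all above the sham mice, and the rises were 0.55 (SE 0.12, adjusted p = 0.00145) with and 0.42 (SE 0.12, adjusted p = 0.0232) without heart failure. In the low 18S arrays alone they were 0.43 (adjusted p = 0.0507) and 0.27 (adjusted p = 0.403). The call without heart failure was also lost in the high 18S arrays alone and without sham mouse 1 or 2. Slc25a10, the dicarboxylate carrier, differed by 0.05 with heart failure (95 percent interval -0.25 to 0.35).

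Slc25a28 (mitoferrin-2), which imports iron into mitochondria of most tissues, was the other carrier that separated the banded groups. It read 8.30 to 8.71 with heart failure (median 8.56), 8.55 to 9.24 without (median 8.91), and 9.14, 9.16, 9.05, 8.99 and 9.17 in sham mice. Mice with heart failure lay below all sham mice and overlapped with the lowest of the banded mice without heart failure. It fell by 0.56 against sham mice (SE 0.10, adjusted p = 0.000175) and by 0.37 against banded mice without heart failure (SE 0.09, adjusted p = 0.0136), which was -0.24 (adjusted p = 0.173) in the low 18S arrays alone.

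Slc25a37 (mitoferrin-1), the iron carrier best known from red cell precursors, differed by -0.27 with heart failure (adjusted p = 0.124), with values of 7.53 to 8.45 against 7.83 to 8.56 in sham mice. The glutathione carrier Slc25a39 differed by -0.09 (adjusted p = 0.236) and its relative Slc25a40 by -0.05 (adjusted p = 0.592). Of the 5 kept probe sets of Slc25a39, 2 others were called lower in the fit over all 18595 probe sets, at -0.36 (adjusted p = 0.00642) and -0.29 (adjusted p = 0.00415).

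The uncoupling-protein relatives Slc25a14, Slc25a27 and Slc25a30 were called in none of the comparisons. Slc25a14 read 5.41, rounded to 2 decimals, on 13 of the 19 arrays, so its probe set gave little to compare. Among carriers with other or unsettled roles, Slc25a46, an outer-membrane protein tied to mitochondrial shape, read 11.20 to 11.44 with heart failure (median 11.41), 11.41 to 11.54 without (median 11.45), and 11.42, 11.64, 11.54, 11.50 and 11.56 in sham mice. The top of the heart failure range reached into the sham range, and the fall was 0.19 (SE 0.06, adjusted p = 0.0135), which in the low 18S arrays alone had an adjusted p of 0.116. Slc25a35 read 6.12 to 6.66 with heart failure (median 6.53), 6.53 to 6.80 without (median 6.64), and 6.84, 6.79, 6.66, 6.51 and 6.55 in sham mice. The ranges overlapped, and its fall of 0.24 (SE 0.09, adjusted p = 0.0445) was kept in 14 of 30 alternatives. Slc25a45 differed by 0.04.

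**Figure D2:**
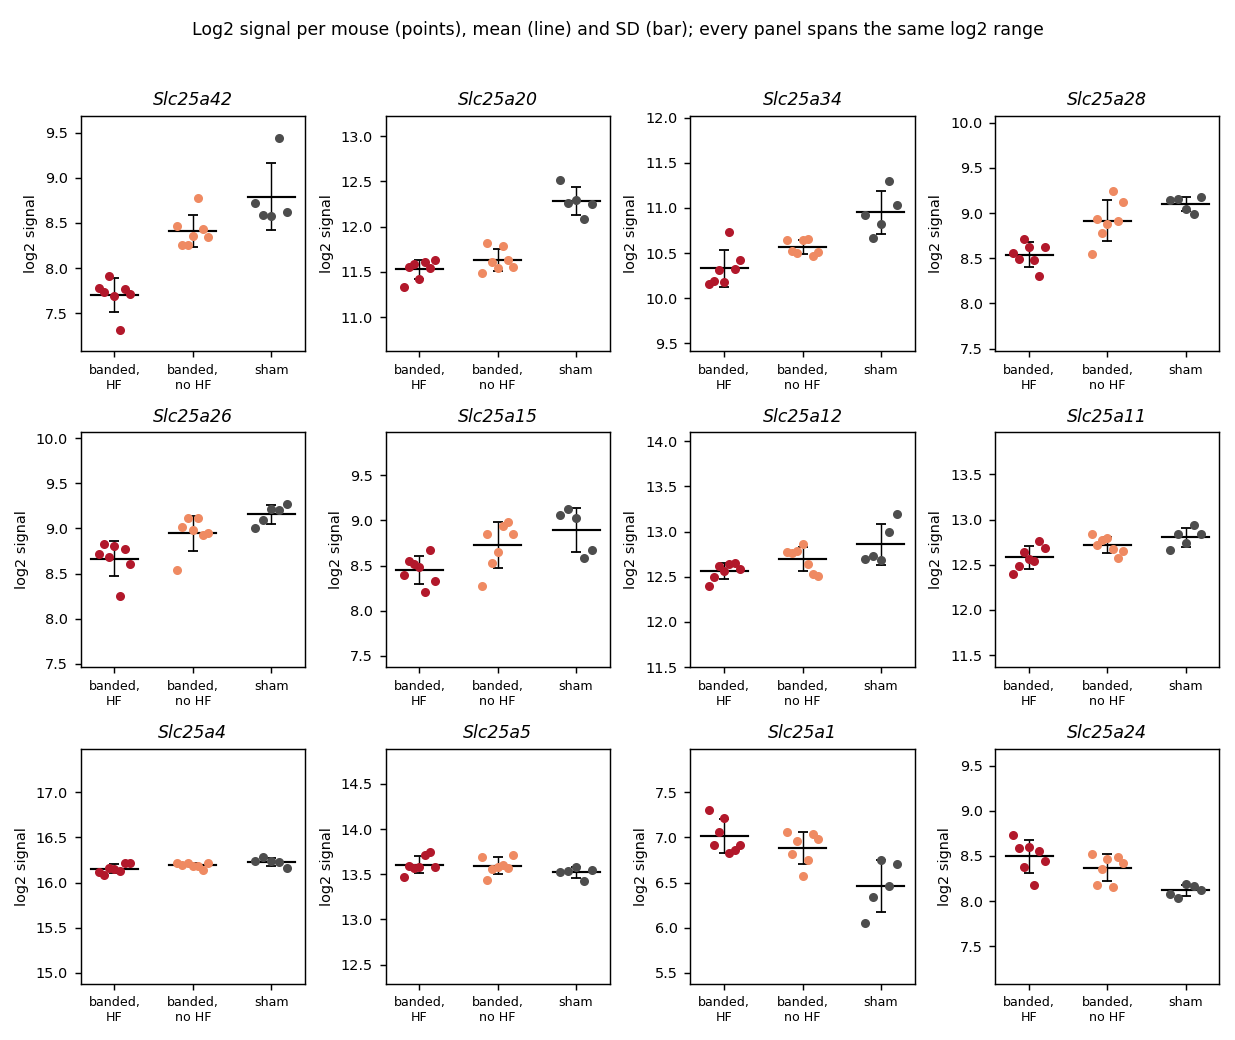
Log2 signal (y axis) of 12 carriers in each mouse, with banded mice with heart failure (7), banded mice without (7) and sham mice (5) from left to right, and the mean as a line with the SD as a bar. All mice with heart failure lie below the other groups for Slc25a42, while both banded groups lie below sham mice for Slc25a20.

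Probe sets of the same gene were a check on these calls, since 16 carriers had more than 1 kept. For Slc25a20, Slc25a26, Slc25a12 and Slc25a46 both probe sets were called lower with heart failure, at -0.76 and -0.57, -0.49 and -0.42, -0.30 and -0.38, and -0.19 and -0.25. The other probe set of Slc25a24 gave 0.38 as well, with an adjusted p of 0.112, and that of Slc25a3, near the filter, gave -0.09 (adjusted p = 0.858). All 5 probe sets of Slc25a29 were negative, from -0.36 to -0.18, and 2 of them were called, though not the one that stood for the gene. Slc25a51 had probe sets of opposite sign, 0.20 (adjusted p = 0.11) and -0.17 (adjusted p = 0.0474). The 3 probe sets of Slc25a36 ranged from -0.05, on the one that stood for the gene, to 0.33. Those of Slc25a44 gave 0.00 and 0.23, and 0 probe sets of either gene were called.

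**Figure D3:**
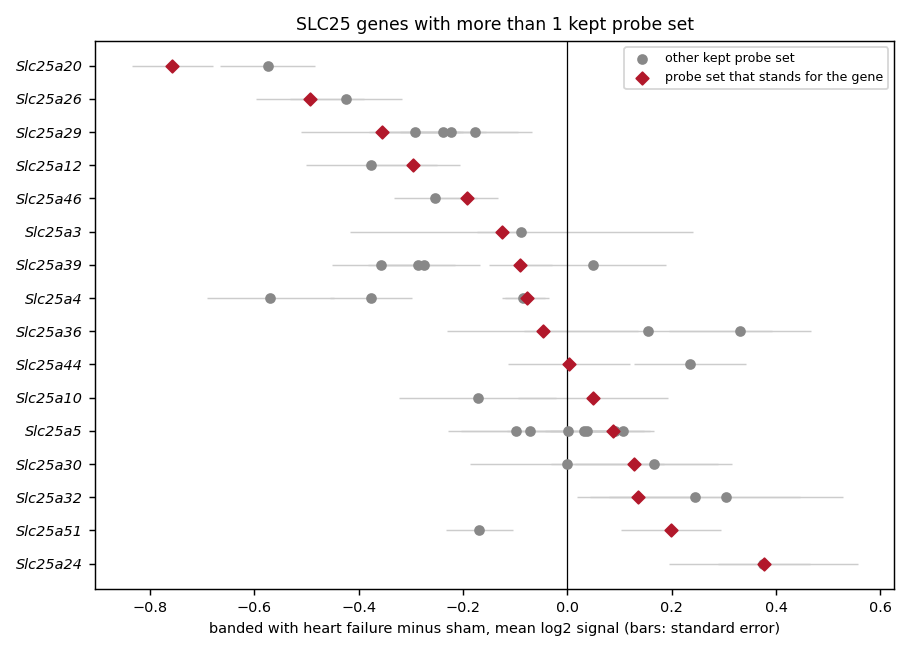
Difference of mean log2 signal between banded mice with heart failure and sham mice (x axis), with the standard error as a bar, for each kept probe set of the 16 carriers with more than 1 (y axis); diamonds mark the probe set that stood for the gene. The Slc25a4 diamond lies at -0.08 while its other probe sets reach -0.57, and the Slc25a5 probe sets lie between -0.10 and 0.11.

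Animal numbers in the labels fell into 3 series, which held 2, 2 and 3 mice with heart failure, 3, 2 and 2 banded mice without, and 3, 1 and 1 sham mice. What the series stand for was not given in the sources used here. In series 1, the 3 sham mice and 3 banded mice without heart failure were those on the high 18S arrays. Its 2 mice with heart failure were on low 18S arrays, so series 1 compares heart failure with either group across the 18S sets. With heart failure, all 15 called carriers had the same sign in each series. Slc25a42 differed by -0.87, -1.64 and -1.02 and Slc25a20 by -0.91, -0.58 and -0.66 in series 1, 2 and 3. Without heart failure, 4 of 5 did so, and the exception was Slc25a23, at 1.25, -0.11 and 0.17. The series 1 difference without heart failure uses the same mice as the high 18S arrays alone, so it is the same contrast. Between the banded groups Slc25a42 differed by -0.76, -0.46 and -0.81 and Slc25a28 by -0.57, -0.19 and -0.25. The carriers were called on these same mice, so shared signs are favoured and are no independent check. Series 2 and 3 each rest on 1 sham mouse, and the share over all called genes was not counted.

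**Figure D4:**
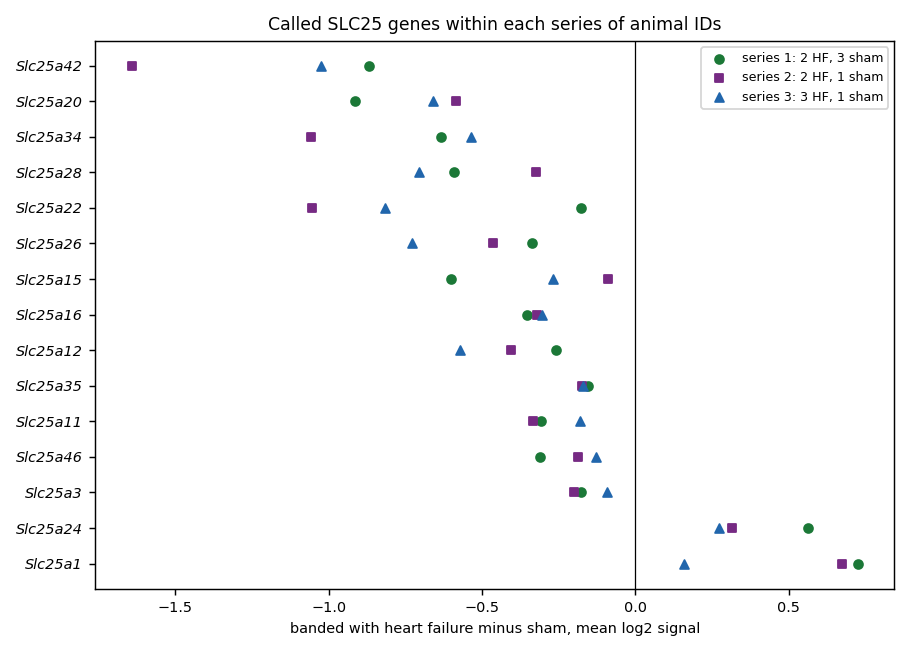
Difference of mean log2 signal between banded mice with heart failure and sham mice (x axis) within each of the 3 series of animal numbers (symbols) for the 15 carriers called in that comparison (y axis). Each of the 13 carriers that fell is left of 0 in every series, and Slc25a1 and Slc25a24 are right of it in every series.

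Enzymes and proteins that work with the carriers were compared in the same fit. The carnitine partners of Slc25a20 fell with it, with 3 of 4 tested genes lower in heart failure than in sham mice and 0 higher, beside 18.9 and 20.4 percent of all genes. Cpt2, the inner-membrane acyltransferase that takes over from the carrier, fell by 0.62 (SE 0.06, adjusted p = 2.5e-07), the plasma membrane carnitine transporter Slc22a5 by 0.59 (SE 0.09, adjusted p = 3.02e-05) and the carnitine acetyltransferase Crat by 0.45 (SE 0.12, adjusted p = 0.00686). Cpt1a, the liver form of the outer-membrane acyltransferase, differed by 0.31 (adjusted p = 0.13). In banded mice without heart failure Slc22a5 fell by 0.40 and Cpt2 by 0.36, and Cpt2 was lower with than without heart failure by 0.25 (adjusted p = 0.00665). The median of the 4 genes was -0.52 with and -0.33 without heart failure, against sham mice.

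The 4 enzymes of the malate-aspartate shuttle moved less, and only Mdh2, the mitochondrial malate dehydrogenase, fell with heart failure (-0.15, adjusted p = 0.0128). Around the citrate carrier, citrate synthase (Cs) fell by 0.29 with heart failure (adjusted p = 0.000141) and by 0.24 without it (adjusted p = 0.00257), and the other 3 tested genes did not pass. Iron-sulphur and haem synthesis, which use the iron that mitoferrins import, had 6 of 11 genes lower and 0 higher with heart failure, beside 18.9 percent lower and 20.4 percent higher among all genes. Among the genes called, the largest falls were those of Ppox (-0.35), Fech (-0.28) and Isca1 (-0.23), while the lowest difference of all 11 was -0.37. Without heart failure 2 of these fell (Fech by 0.33 and Ppox by 0.29) and Cpox, of haem synthesis, rose by 0.67 (adjusted p = 0.00409). Lyrm4, a partner of the cysteine desulfurase, was lower with than without heart failure by 0.46 (adjusted p = 0.036).

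Mitochondrial one-carbon enzymes, which handle the folate that Slc25a32 carries, moved in both directions. Mthfd2 averaged 8.60 ± 0.46 with heart failure, 7.89 ± 0.23 without and 6.37 ± 0.25 in sham mice (SD, n = 7, 7 and 5), a rise of 2.23 (SE 0.19, adjusted p = 8.38e-08) and of 1.52 (SE 0.19, adjusted p = 3.27e-05) against sham mice. Aldh1l2 fell by 1.09 (adjusted p = 0.00412) and 1.01 (adjusted p = 0.0161) and Mthfd2l by 0.44 and 0.52 in the same 2 comparisons. Mthfd2 was also higher with than without heart failure, by 0.72 (adjusted p = 0.0146).

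All 3 tested genes for proteins of the SLC25 fold under other symbols, of 5 listed, were called with heart failure against sham mice. Among all genes 39.3 percent were called in either direction, and a list of 3 is too short to set against that share. Ucp3, an uncoupling protein of muscle, fell by 1.02 (SE 0.32, adjusted p = 0.0162), the outer-membrane protein Mtch2 fell by 0.24 (adjusted p = 0.00497) and its relative Mtch1 rose by 0.64 (adjusted p = 0.00022). Mtch1 also rose without heart failure, by 0.46 (adjusted p = 0.00864). Of 12 genes for carrier import, Timm13 and Timm8b, small chaperones of the intermembrane space, fell by 0.23 each with heart failure and 0 rose, so the falls were no more frequent than the 18.9 percent of all genes. Without heart failure Tomm40, the outer-membrane import channel, rose by 0.32 (adjusted p = 0.0442), and Timm10 and Timm8b were each lower with than without heart failure by 0.21.

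Among 13 inner-membrane transport genes outside the family, 5 fell and 3 rose with heart failure, beside 18.9 and 20.4 percent of all genes, so the number that rose was near the background. The 3 that moved most were the sideroflexins Sfxn3, which rose by 0.54, and Sfxn4, which fell by 0.50, and the ABC transporter Abcb8, which fell by 0.36. Without heart failure 0 of the 13 passed either way by limma, 2 being higher and 2 lower at an unadjusted p under 0.05, and Mcu, the calcium uniporter pore, was lower with than without heart failure by 0.22 (adjusted p = 0.0399). At the outer membrane, Hk1, a hexokinase that binds there, rose by 0.55 (adjusted p = 2.63e-05) and the channels Vdac1 and Vdac3 fell by 0.26 each with heart failure, and all 3 moved the same way without it (0.45, -0.25 and -0.18). The muscle creatine kinase Ckm was lower with than without heart failure by 0.23 (adjusted p = 0.0155).

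**Figure D5:**
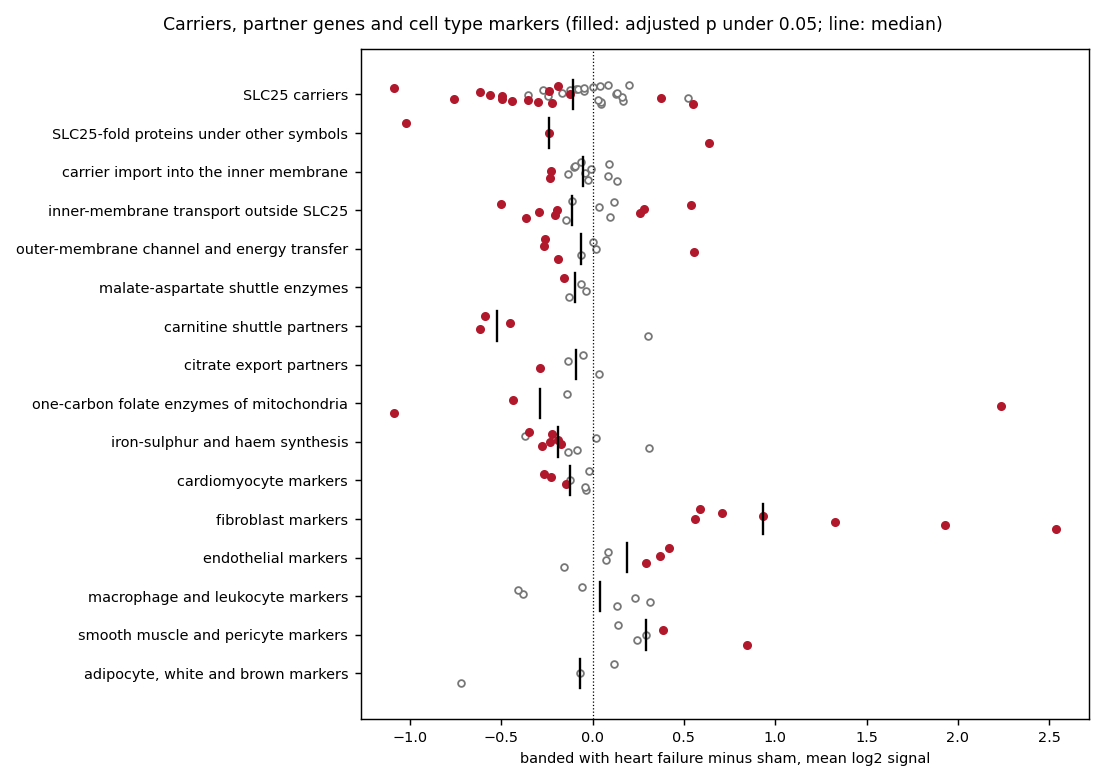
Difference of mean log2 signal between banded mice with heart failure and sham mice (x axis) for each tested gene of the carrier family, the partner lists and the cell type markers (y axis), filled where the adjusted p was under 0.05, with the list median as a line. The carnitine partners have their median at -0.52 and the fibroblast markers at 0.93, beside -0.11 for the carriers.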

How the data were processed

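Biotin-labelled cRNA from 3 ug of total RNA per left ventricle was hybridised to Affymetrix arrays, per the labels' protocols, 1 array per mouse. The table the authors deposited holds log2 signals of 45101 probe sets made with GCRMA, per the submitters' processing notes, a method that in general corrects background by probe sequence, quantile-normalizes and summarizes probes. Its version was not given in the sources used here. A probe-to-gene table gave 1 symbol to 34958 probe sets, several to 932 and was silent on 9211. Only probe sets with 1 symbol were used, 1 per gene, under the filter given with the members.

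Groups came from the labels' outcome, and mice were numbered within a group in the order of the samples. All 19 arrays entered 1 limma fit (limma 3.58.1, R 4.3.3; lmFit, eBayes) with group as the only term, and Benjamini-Hochberg adjustment covered all 10733 genes at 0.05. The number of arrays limits the precision. Differences are of mean log2 signal, first-named group minus second. On simulated data, genes shifted by 0.5 were recovered in 64, 76 and 68 percent and by 1 in 93, 97 and 94 percent (100 genes of each size among 10733, heart failure against sham, no heart failure against sham, and heart failure against no heart failure). The simulation had independent normal noise and fewer changed genes than were called in any real comparison, so its rates need not hold for these data. Probe sets were also fitted singly (18595 kept). Alternatives changed the filter, the probe set rule, scaling, blocks (animal number series, 18S set), an actin covariate, the arrays used and the spread estimate, and left out each mouse in turn. The blocks are not independent of each other, since all high 18S arrays were in series 1.

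The members, roles, partner and marker lists were chosen with earlier results of these data known. Full values are given for carriers past the threshold in any comparison and for Slc25a3, Slc25a4, Slc25a5, Slc25a11, Slc25a12, Slc25a13 and Slc25a20; from each partner list the called genes are named, at most 3 per comparison. Genes that the probe table did not pair with a single kept probe set were not analysed here. Promoter windows came from RefSeq (GRCm38.p6).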

Additional observations from a re-analysis of the deposited data

Results flagged for a closer look

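Among 108 sets of values (36 carriers in 3 groups), 18 values in 12 genes lay apart from the rest of their group by Dixon's criterion at 95 percent. For independent normal values chance gives about 1 in 20 sets. That rate need not hold here, since Slc25a14, Slc25a25, Slc25a40 and Slc25a45, which are among the 12 genes, repeat a value across many arrays. Mouse 5 with heart failure gave 5 of the 7 such values in its group. Its signal was 10.7 for Slc25a33, 8.40 for Slc25a30 and 7.22 for Slc25a32, each the highest with heart failure, and 7.32 for Slc25a42 and 8.25 for Slc25a26, each the lowest. Without that mouse Slc25a42 differed from sham mice by -1.02 and from banded mice without heart failure by -0.65.

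Slc25a42 also had an outlying high value of 8.78 in banded mouse 5 without heart failure and of 9.44 in sham mouse 4. In banded mouse 1 without heart failure, Slc25a26 (8.55) and Slc25a29 (6.27) were low and Slc25a25 (4.74) was high. Slc25a27 was high (5.10) in mouse 5 and Slc25a4 low (16.1) in mouse 6 of that group, and Slc25a40 was low (7.31) in mouse 2 with heart failure. In sham mouse 2, Slc25a25 was low (3.96) and Slc25a45 high (5.83).

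Slc25a14 gave an outlying value in every group, at 6.35 in mouse 4 with heart failure, 5.28 in mouse 3 without and 5.50 in sham mouse 4. It read 5.41, rounded to 2 decimals, on 13 of 19 arrays.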

How the results depend on the processing

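Against sham mice with heart failure, 13 carriers were lower (11 to 14 without any one mouse, 9 to 16 under other settings) and 2 were higher (2 to 4 without any one mouse, the 4 arising without sham mouse 4), with 0 higher in the low 18S arrays alone. Calls for Slc25a11, Slc25a12, Slc25a20, Slc25a28, Slc25a34 and Slc25a42 were kept in all 30 alternatives. Without heart failure, 2 were higher (0 to 3 without any one mouse: 1 without banded mouse 1, 3, 6 or 7 or sham mouse 3, and 0 without sham mouse 1 or 2). That count was 1 with no filter, 1 after a second quantile normalization, 4 with the animal number series as a block, 0 in the low 18S arrays alone and 4 in the high 18S arrays alone, an alternative chosen after seeing the data. The 3 lower (2 to 4 without any one mouse) became 1 in the high 18S arrays alone, and the Slc25a20 call held in 31 of 31.

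With against without heart failure, 2 were lower (2 to 4 without any one mouse, the 4 arising without banded mouse 1 without heart failure) and 0 higher throughout. The count was 4 with the mean of a gene's probe sets, 5 with the animal number series, the 18S set or the actin difference in the fit, and 1 in the low 18S arrays alone, where 7, 4 and 2 mice remained. Slc25a42 was called in all 30 alternatives.

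No difference past the threshold changed sign. Among all genes called with heart failure against sham mice, 52.0 percent were higher, against 40.9 percent after a second quantile normalization and 37.9 percent with equal array medians; without heart failure the shares were 62.4, 49.3 and 45.1 percent. The cause of these changes was not tested. No paired analysis was possible because the labels give no replicate numbers shared between groups. What can be seen is limited by signals near the filter for Slc25a25 and Slc25a27 and near the top of the range for Slc25a4. For Slc25a14 the limit is 1 rounded value shared by 13 of 19 arrays.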
